A study of Bos indicus with 12 samples.

Results

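Expression of 40 genes of the cell division cycle was followed in blood RNA of 12 Bos indicus cows: 16 genes of DNA replication and S phase entry, and 24 genes of mitosis and the entry into it. The genes were chosen by symbol from what they are known to do, with no measured value in the rule, though earlier results of these data were known. They stand against 26229 identifiers in the deposited table. All 40 were found in the table and all 40 passed the filter on low counts. The cows came from the breeds Gir and Shweta Kapila, 6 of each, and were females in the second or the third lactation. Lactation records had divided each breed into 3 high-yielding and 3 low-yielding cows. The groups are written Gir high, Gir low, Shweta Kapila high and Shweta Kapila low, each with n = 3. No treatment is named. A library is 1 cow, so errors and p-values describe the spread between cows, estimated for each gene jointly over the 4 groups. Beyond the yield class, no milk record of a cow was used here. The labels name peripheral blood mononuclear cells as the cell type and a whole-blood kit for the extraction, and they do not settle which of them the RNA came from.

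Before a cell divides it loads the MCM helicase onto its replication origins, fires them in S phase with the help of cyclin E and the GINS and CDC45 proteins, and copies its DNA behind the sliding clamp PCNA. It then builds up cyclins A and B with CDK1, condenses its chromosomes, attaches them to the spindle under the watch of the checkpoint kinases, and splits when the anaphase-promoting complex is switched on. Most circulating leukocytes rest outside the cycle, so transcripts of these genes in blood are taken as a readout of the few that divide, such as activated lymphocytes and plasmablasts. In bulk RNA, fewer dividing cells and less RNA per dividing cell cannot be told apart.

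Libraries held 14209643 to 27165286 expected counts in total and the 3 largest were Shweta Kapila high 3, low 1 and low 2. Shweta Kapila cows lay farther apart than Gir cows, with a median SD of log2 counts per 1000000 (CPM) over all 15420 genes tested of 0.564 against 0.303. The labelled mononuclear cells were represented by T cell, B cell, NK cell and monocyte markers in every library, such as CD3E at 531 to 1574 CPM and CD79A at 122 to 1085 CPM. Mature neutrophil markers were present as well (CSF3R, 479 to 2147 CPM). A set of 37 short identifiers without a symbol held 4.54% to 13.1% of a library's counts. Levels below are TMM-scaled CPM, with the values of cows 1, 2 and 3 of a group in that order. Differences are log2 fold changes with their standard error (SE) from edgeR's quasi-likelihood test, adjusted by Benjamini-Hochberg over all genes tested.

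The cycle genes differed more between single cows than between groups, and the spread was widest in low-yielding Shweta Kapila cows. The mean deviation of the 24 mitosis genes from their 12-cow means was 1.16 on the log2 scale in Shweta Kapila low 1, 0.69 in low 2 and −0.73 in low 3. That 1 group thus held the highest, the next highest and the lowest of the 12 cows. In the other 9 cows the mitosis mean lay between −0.41 and 0.21. Its SD was 0.980 in Shweta Kapila low against 0.142 in Shweta Kapila high, 0.284 in Gir high and 0.357 in Gir low. The replication genes ordered the cows at both ends in the same way over a shorter range, at 0.44, 0.29 and −0.27 in Shweta Kapila low 1, 2 and 3. The mitosis mean minus the replication mean ran from −0.46 in Shweta Kapila low 3 to 0.71 in low 1, and lay at 0.29 in Shweta Kapila high 3, where replication genes stood at −0.25 and mitosis genes at 0.039.

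**Figure D1:**
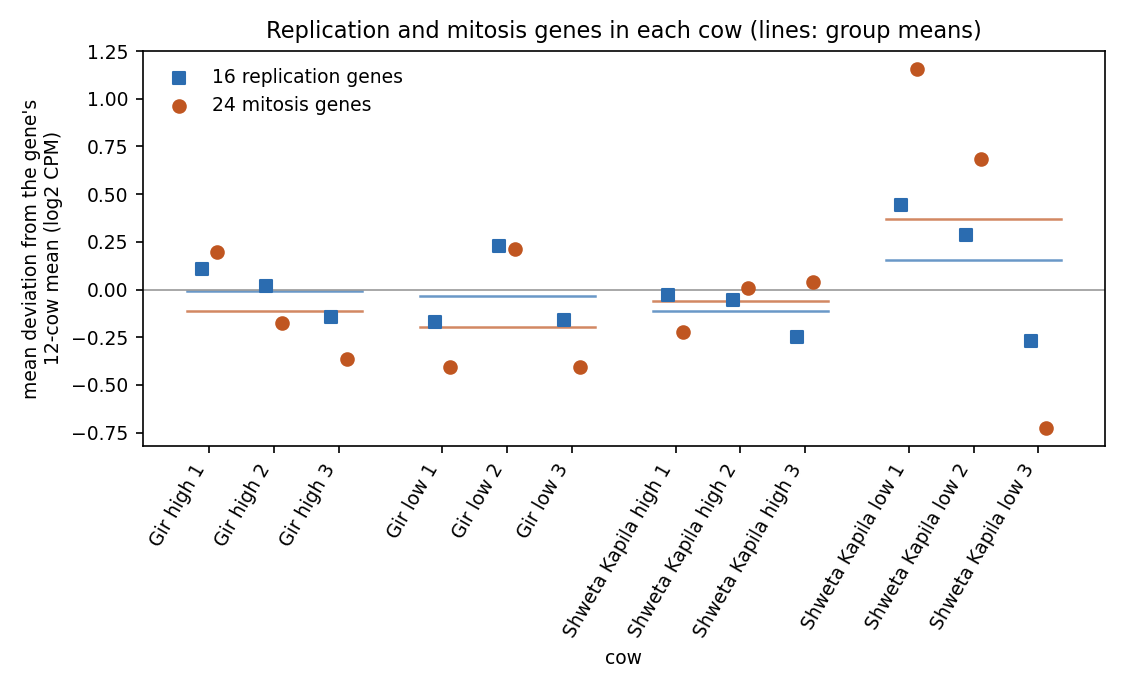
Mean deviation of the 16 replication genes (squares) and the 24 mitosis genes (circles) from each gene's 12-cow mean, in log2 CPM, for each cow; lines are the group means. Shweta Kapila low 1 and low 2 stand at 1.16 and 0.69 for mitosis and low 3 at −0.73, while the other 9 cows lie between −0.41 and 0.21.

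Gene by gene, 25 of the 40 were at their highest in Shweta Kapila low 1, where 24.4% of all genes tested were at theirs, and 19 were at their lowest in Shweta Kapila low 3, against 10.6% of all genes. Shweta Kapila low 1 and low 2 were together the top 2 cows for 17 of 24 mitosis genes and for 7 of 16 replication genes. The same held for 13.2% of all genes tested. The 16 members outside this pattern were MCM2, MCM3, MCM5, MCM7, GINS2, CDC45, FEN1, TYMS and CCNE2 of the replication list, and CDK1, TTK, PLK1, AURKA, AURKB, CDC20 and KIF20A of the mitosis list. Over the 12 cows the median SD of log2 CPM was 0.360 for replication genes, 0.677 for mitosis genes and 0.493 for all genes tested. Within Gir these were 0.242, 0.357 and 0.303, and within Shweta Kapila 0.416, 0.869 and 0.564.

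**Figure D2:**
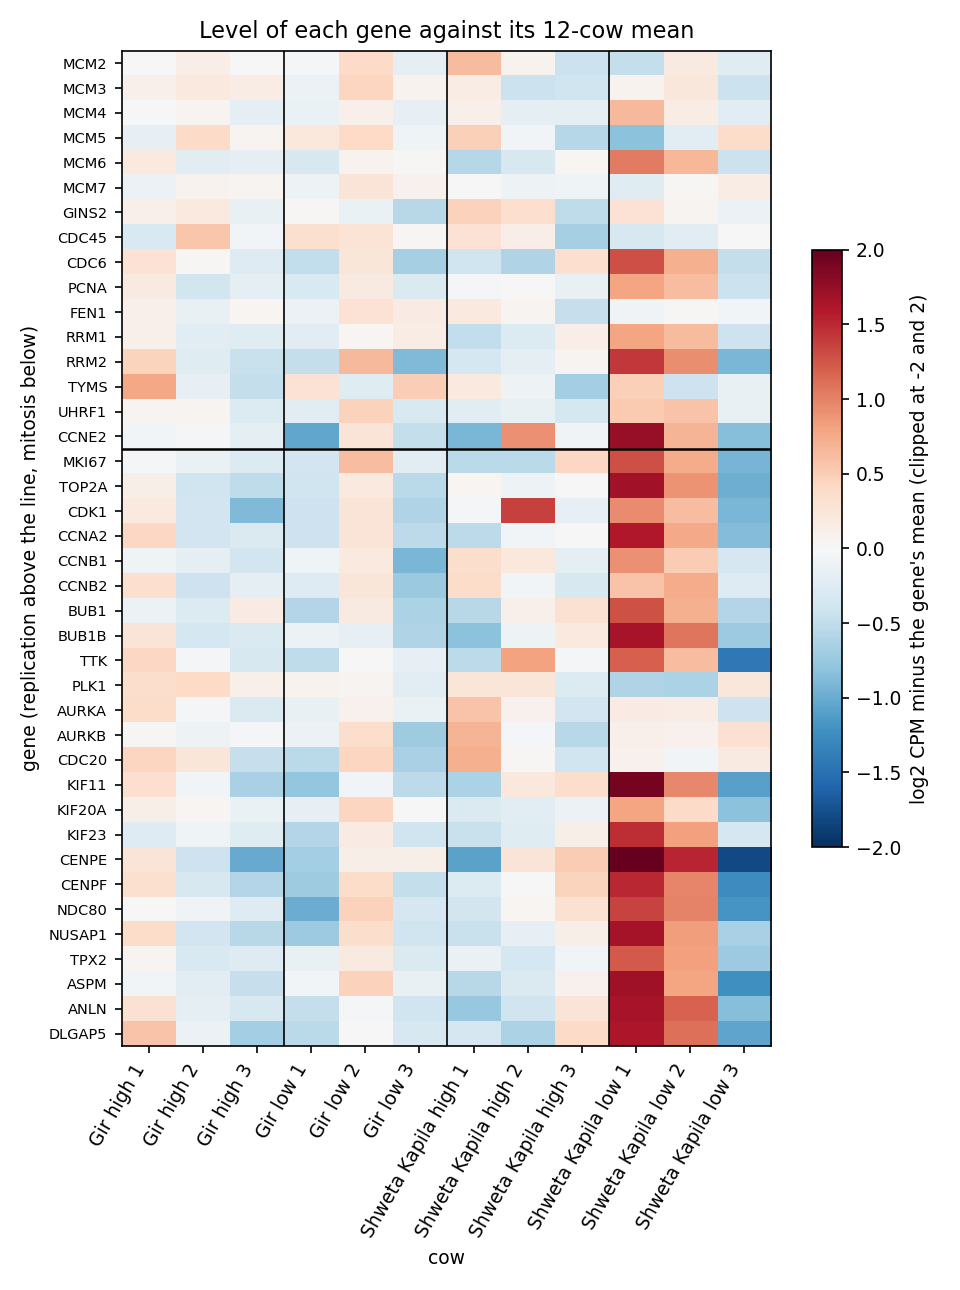
Level of each of the 40 genes in each cow as log2 CPM minus the gene's mean over 12 cows, clipped at −2 and 2, with replication genes above the line. The columns of Shweta Kapila low 1 and low 2 are red for most mitosis genes and that of low 3 is blue, while PLK1 and MCM5 are blue in low 1 and low 2.

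The helicase subunits did not vary as a unit. MCM2 (identifier 109575919) stood at 24.4, 26.8 and 24.3 CPM in Gir high, 24.1, 31.8 and 21.3 in Gir low, 38, 25.6 and 18.1 in Shweta Kapila high, and 17.6, 27.8 and 20.7 in Shweta Kapila low. Its highest and lowest values were both Shweta Kapila cows, high 1 and low 1, and the groups overlapped in both breeds. MCM6 (identifier 109568195), a subunit of the same ring, stood at 82.5, 62 and 63.9 CPM in Gir high, 57.6, 75.7 and 73.1 in Gir low, 48.5, 57.6 and 73.6 in Shweta Kapila high, and 148, 115 and 53.5 in Shweta Kapila low. The cows low 1 and low 2 of Shweta Kapila lay above all others and low 3 lay inside the high-yielding range. MCM7 stood at 135, 153 and 151 CPM in Gir high, 136, 174 and 155 in Gir low, 145, 135 and 137 in Shweta Kapila high, and 123, 148 and 161 in Shweta Kapila low, the narrowest of the 40 genes at 1.41-fold between cows. MCM3 stood at 82.5, 88.2 and 85.2 CPM in Gir high, 71.5, 104 and 81.3 in Gir low, 85.1, 57.3 and 58.4 in Shweta Kapila high, and 81.5, 90.4 and 57.3 in Shweta Kapila low, with its highest value in Gir low 2. MCM4 covered 35.4 to 64.9 CPM with its top in Shweta Kapila low 1. MCM5 covered 20.8 to 50.9 CPM, and there Shweta Kapila low 1 was the lowest cow and Shweta Kapila high 1 the highest.

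The factors that load and start the helicase differed from each other in the same way. CDC6 (identifier 109574553), which loads the ring onto origins, stood at 10.3, 8.53 and 6.97 CPM in Gir high, 5.97, 9.86 and 5.30 in Gir low, 6.33, 5.55 and 10.6 in Shweta Kapila high, and 20.4, 13.7 and 6.05 in Shweta Kapila low. The top 2 cows were Shweta Kapila low 1 and low 2, and low 3 was among the 4 lowest. CDC45, which travels with the helicase, stood at 8.59, 15.6 and 10.3 CPM in Gir high, 13.2, 12.8 and 10.8 in Gir low, 13, 11.7 and 6.72 in Shweta Kapila high, and 8.49, 9.15 and 10.6 in Shweta Kapila low, highest in Gir high 2. GINS2, a subunit of the GINS complex that binds CDC45, stood at 7.43, 7.88 and 6.25 CPM in Gir high, 7.06, 6.30 and 4.73 in Gir low, 9.49, 8.69 and 4.86 in Shweta Kapila high, and 8.45, 7.18 and 6.39 in Shweta Kapila low. Neither CDC45 nor GINS2 had Shweta Kapila low 1 and low 2 at its top, and their yield groups overlapped in both breeds. CCNE2 (cyclin E2), which drives the entry into S phase, stood at 5.28, 5.38 and 4.80 CPM in Gir high, 2.65, 6.56 and 3.92 in Gir low, 2.91, 10.3 and 5.19 in Shweta Kapila high, and 18.2, 8.79 and 3.03 in Shweta Kapila low, a 6.89-fold range led by Shweta Kapila low 1 and high 2.

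Among the enzymes at the fork and of nucleotide supply, the clamp and ribonucleotide reductase followed the 2 high cows. PCNA (identifier 109568119), the sliding clamp, stood at 123, 84.3 and 95.2 CPM in Gir high, 87.9, 124 and 89.1 in Gir low, 107, 108 and 97.7 in Shweta Kapila high, and 187, 167 and 80.7 in Shweta Kapila low. Its 2 top values were Shweta Kapila low 1 and low 2, and low 3 was the lowest of all cows. RRM1, the large subunit of ribonucleotide reductase, stood at 81.4, 64.9 and 64.2 CPM in Gir high, 65.3, 78 and 84.1 in Gir low, 53.9, 62.9 and 83.5 in Shweta Kapila high, and 131, 118 and 56.8 in Shweta Kapila low. RRM2, its regulated small subunit, covered 28.1 to 141 CPM in Shweta Kapila and 28.7 to 82.6 CPM in Gir. Both subunits had Shweta Kapila low 1 and low 2 on top. FEN1, the nuclease that trims Okazaki fragments, stood at 23.3, 19.6 and 22.5 CPM in Gir high, 20.1, 26.5 and 24.3 in Gir low, 24.8, 22.6 and 15.9 in Shweta Kapila high, and 20.9, 22 and 21 in Shweta Kapila low, a 1.67-fold range. TYMS (identifier 109577885), thymidylate synthase, stood at 27, 14.1 and 11.4 CPM in Gir high, 19.4, 13.3 and 22.2 in Gir low, 18.1, 14.8 and 9.90 in Shweta Kapila high, and 21.9, 11.9 and 14.3 in Shweta Kapila low, with Gir high 1 the highest cow. UHRF1, which keeps DNA methylation through replication, stood at 23.5, 23.4 and 18.8 CPM in Gir high, 19.3, 31.2 and 18.3 in Gir low, 19.5, 20.3 and 17.7 in Shweta Kapila high, and 32.5, 33.5 and 20.4 in Shweta Kapila low. All 3 Shweta Kapila low cows were above all 3 Shweta Kapila high cows for UHRF1, though low 3 and high 2 lay side by side.

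Markers of the dividing chromosome showed the cow pattern clearly. MKI67 (identifier 109553165), the antigen Ki-67 that coats mitotic chromosomes and is the usual marker of cycling cells, stood at 147, 135 and 122 CPM in Gir high, 113, 228 and 126 in Gir low, 102, 102 and 198 in Shweta Kapila high, and 362, 247 and 78.2 in Shweta Kapila low. Its highest cow was Shweta Kapila low 1 and its lowest low 3, so the low group enclosed the high group. TOP2A (identifier 109574397), the topoisomerase that untangles sister chromatids, stood at 54.5, 38 and 35.3 CPM in Gir high, 37.9, 57.5 and 34.6 in Gir low, 51.3, 46.7 and 49.5 in Shweta Kapila high, and 160.4, 92.8 and 25.3 in Shweta Kapila low. It covered a 6.33-fold range, with the same 2 cows at its ends.

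The mitotic cyclins and their kinase had the same cows at the top, apart from CDK1. CCNB1 (identifier 109575025), cyclin B1, stood at 11.8, 10.9 and 9.71 CPM in Gir high, 11.7, 14.3 and 6.64 in Gir low, 16, 14.4 and 10.9 in Shweta Kapila high, and 23.7, 17.8 and 9.93 in Shweta Kapila low. Its lowest cow was Gir low 3. CDK1, the kinase that cyclin B activates, stood at 14.3, 9.51 and 6.71 CPM in Gir high, 9.37, 14.9 and 8.22 in Gir low, 12.2, 32.2 and 11.1 in Shweta Kapila high, and 24.1, 19 and 6.62 in Shweta Kapila low, and there Shweta Kapila high 2 was above every other cow. CCNA2 (cyclin A2) covered 6.28 to 34.7 CPM and CCNB2 (cyclin B2) 5.21 to 14.6 CPM over the 12 cows. The spindle checkpoint kinases BUB1, BUB1B and TTK covered 12 to 45.3, 3.35 to 18.5 and 1.94 to 11.9 CPM, each with its top in Shweta Kapila low 1.

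PLK1, AURKA, AURKB and CDC20 were among the 7 mitosis genes that did not have Shweta Kapila low 1 and low 2 as their top 2 cows. PLK1 (identifier 109578571), the polo kinase of mitotic entry, stood at 34.8, 36.2 and 29.5 CPM in Gir high, 28.7, 28.5 and 23.7 in Gir low, 32.3, 32.5 and 22.7 in Shweta Kapila high, and 18.1, 17.8 and 32.2 in Shweta Kapila low. Shweta Kapila low 1 and low 2 were its 2 lowest cows, where most mitosis genes had their highest. AURKA, the Aurora kinase of the spindle poles, stood at 11.3, 8.53 and 7.18 CPM in Gir high, 7.94, 9.34 and 7.98 in Gir low, 13, 9.28 and 6.72 in Shweta Kapila high, and 9.87, 9.71 and 6.62 in Shweta Kapila low. CDC20, which activates the anaphase-promoting complex, stood at 15.6, 13.6 and 8.31 CPM in Gir high, 7.94, 15.5 and 7.36 in Gir low, 18.8, 11.6 and 8.74 in Shweta Kapila high, and 12.2, 11.1 and 13 in Shweta Kapila low. AURKB, the Aurora kinase of the chromosomal passenger complex, covered 6.35 to 16.6 CPM. AURKA, AURKB and CDC20 were all highest in Shweta Kapila high 1, a cow that was also the highest for MCM2, MCM5 and GINS2 and for 19.6% of all genes tested.

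Among the motor, kinetochore and spindle genes the range between cows went from 3.05-fold in KIF20A to 16-fold in CENPE. KIF23 (identifier 109564722), a kinesin of the central spindle needed for the final split, stood at 10.7, 12.1 and 10.8 CPM in Gir high, 8.62, 14.4 and 9.79 in Gir low, 9.49, 10.9 and 14 in Shweta Kapila high, and 36, 22.9 and 10.2 in Shweta Kapila low. Shweta Kapila low 1 and low 2 were well above the other 10 cows, which lay between 8.62 and 14.4 CPM. ANLN (identifier 109557446), anillin, the scaffold of the cleavage furrow, stood at 5.98, 4.24 and 3.87 CPM in Gir high, 3.46, 4.77 and 3.68 in Gir low, 2.85, 3.68 and 5.79 in Shweta Kapila high, and 15.2, 10.9 and 2.68 in Shweta Kapila low. ASPM, a spindle pole protein, stood at 9.64, 8.59 and 7.23 CPM in Gir high, 9.57, 13.7 and 9.03 in Gir low, 6.77, 8.16 and 10.6 in Shweta Kapila high, and 32.3, 17.2 and 4.28 in Shweta Kapila low. KIF20A, another kinesin of the central spindle, stood at 8.07, 7.66 and 6.76 CPM in Gir high, 6.65, 10.1 and 7.45 in Gir low, 6.08, 6.35 and 6.83 in Shweta Kapila high, and 12.9, 9.75 and 4.22 in Shweta Kapila low. For ANLN, ASPM and KIF20A Shweta Kapila low 3 was the lowest of the 12 cows and low 1 the highest. CENPE, the kinetochore motor, had the widest range of all 40 genes, 3.03 to 48.5 CPM or 16-fold, and KIF11, the motor that pushes the spindle poles apart, the next widest at 8.00-fold. The microtubule-binding genes CENPF, NDC80, NUSAP1, TPX2 and DLGAP5 ranged over 6.86-, 5.79-, 5.26-, 3.84- and 6.38-fold, all with Shweta Kapila low 1 at the top.

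The first comparison asked whether the cycle genes differ between high-yielding and low-yielding Gir cows. Their differences were small: the median log2 fold change was −0.018 over the replication genes (7 above 0, 9 below) and 0.065 over the mitosis genes (16 above, 8 below), beside −0.015 over all genes tested. The members reached from −0.35 for ASPM to 0.36 for KIF11. PLK1 had the lowest p, at 0.31 ± 0.27 (SE; unadjusted p = 0.273), and its 3 high-yielding cows, at 34.8, 36.2 and 29.5 CPM, lay above the 3 low-yielding ones at 28.7, 28.5 and 23.7 CPM. It was the 1 member of 40 with high-yielding Gir cows above the low-yielding ones and no overlap, as were 5.12% of all genes. Of the other members, CDC20 was at 0.28 ± 0.38, GINS2 at 0.25 ± 0.31, CDC6 at 0.29 ± 0.43, FEN1 at −0.12 ± 0.23 and MCM7 at −0.082 ± 0.19. MKI67 was at −0.21 ± 0.47, TOP2A at −0.024 ± 0.48, CCNB1 at −0.012 ± 0.36, PCNA at 0.01 ± 0.29, MCM2 at −0.032 ± 0.30 and TYMS at −0.067 ± 0.38. edgeR called 0 of 40 members and 0% of all genes (lowest adjusted p = 1). At an unadjusted p under 0.05 there were 0 of 40 members and 1.89% of all genes. DESeq2 and limma-voom called 0 members. The main fit shares its estimate of spread with the Shweta Kapila cows, which lay farther apart. With the Gir libraries alone 0 members had an unadjusted p under 0.05 in edgeR, against 770 of 14714 genes. With single Gir cows left out, the mitosis median ran from −0.10 without Gir high 1 to 0.36 without Gir low 2, and was −0.042 without Gir low 3. The replication median ran from −0.077 without Gir low 1 to 0.13 without Gir low 2, and was 0.041 without Gir high 3.

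In Shweta Kapila most cycle genes had a lower mean in the high-yielding cows, and no gene passed the test. The median log2 fold change was −0.26 over the replication genes (12 of 16 below 0) and −0.74 over the mitosis genes (20 of 24 below 0), beside −0.023 over all genes tested. The lowest p-values were those of KIF23, at −1.0 ± 0.39 (SE; unadjusted p = 0.0243), MCM6, at −0.81 ± 0.33 (0.0272), and ANLN, at −1.22 ± 0.51 (0.0345). BUB1B (−1.13 ± 0.49) and TPX2 (−0.83 ± 0.38) were the other members with an unadjusted p under 0.05. These 5 of 40 were all lower in high-yielding cows, as were 2.93% of all genes, and 0 members were higher against 4.05% of all genes. In each of the 5 the cow Shweta Kapila low 3 lay within or below the range of the high-yielding cows, so the yield groups overlapped. This count depended on the fit, as the main one shares its estimate of spread with the Gir cows. With the Shweta Kapila libraries alone 0 members were lower at that bound, against 156 of 14787 genes. With the replicate number as a block there were also 0, against 345 of 15420. DESeq2 had 2 replication and 7 mitosis genes lower, against 658 of 15394. UHRF1 (−0.59 ± 0.28) was the 1 member lower without overlap, beside 3.7% of all genes, and 0 members were higher without overlap, beside 3.51%.

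None of the standard markers passed the test in Shweta Kapila. MKI67 was at −0.77 ± 0.47, TOP2A at −0.92 ± 0.48, CCNB1 at −0.32 ± 0.35 and PCNA at −0.48 ± 0.29. CENPE had the largest difference, −1.32 ± 0.72, with an SE to match its range. Members above 0 were MCM2 (0.30 ± 0.30), CDC45 (0.15 ± 0.31), MCM5 (0.15 ± 0.33) and GINS2 (0.062 ± 0.31) of replication, and PLK1 (0.36 ± 0.27), CDK1 (0.15 ± 0.52), AURKA (0.14 ± 0.31) and CDC20 (0.11 ± 0.37) of mitosis. TYMS stood at −0.17 ± 0.38. edgeR called 0 of 40 members and 0% of all genes, with a lowest adjusted p of 0.655 among members and 0.353 among all genes. DESeq2 called 0 members, and limma-voom with sample weights called 14 of 40, 13 of them lower and PLK1 higher, as it did 25.3% of all genes. Its weights ran from 0.184 for Shweta Kapila low 3 to 6.62 for low 2.

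The Shweta Kapila values rested on few libraries. Without low 1 the mitosis median was −0.28 and the replication median −0.13, and 0 of 40 members had an unadjusted p under 0.05 on the lower side, against 2.55% of all genes. Without low 3 the medians were −1.18 and −0.43, and 16 of 24 mitosis and 8 of 16 replication genes were lower at that bound, against 12.4% of all genes. On the higher side there were then 1 mitosis and 0 replication genes, against 19.3% of all genes. edgeR called no member at a false discovery rate of 0.05 in either of these fits. Without the 3 largest libraries, which leaves 1 low-yielding Shweta Kapila cow, the medians were 0.56 for mitosis, with 0 of 24 genes below 0, and 0.19 for replication. With the log2 total count as a covariate the mitosis median was −0.47 and the replication median −0.26. With the share of the short identifiers as a covariate they were 0.15 and −0.10. That share was 13.1%, 11.7% and 5.57% in Shweta Kapila low 1, 2 and 3 and 4.54%, 4.72% and 9.00% in high 1, 2 and 3, so it moved with the mitosis genes among the low-yielding cows, and its part in the differences was not tested beyond that fit.

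**Figure D3:**
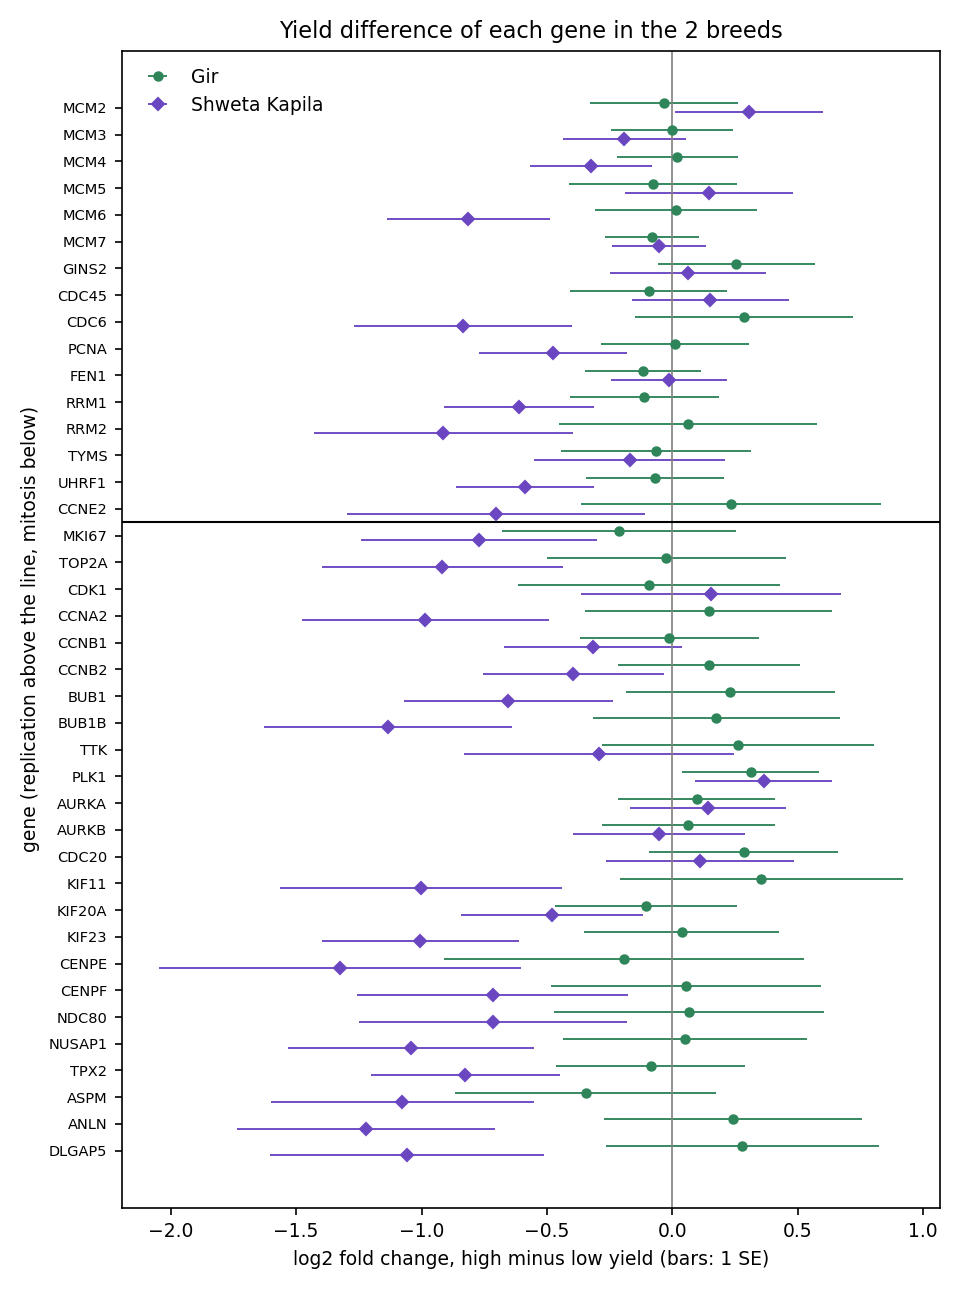
Log2 fold change of each of the 40 genes between high-yielding and low-yielding cows in Gir (circles) and Shweta Kapila (diamonds), with bars of 1 SE and n = 3 cows in each group. Gir values lie within 0.36 of 0, while 20 of 24 mitosis genes lie below 0 in Shweta Kapila, down to −1.32 for CENPE.

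For both breeds together the yield differences of the breeds were averaged, so each gene's value lies between its single-breed values by construction. The mean of the yield differences had a median of −0.14 over replication genes (12 of 16 below 0) and −0.33 over mitosis genes (19 of 24 below 0), beside −0.011 over all genes. ASPM was at −0.71 ± 0.37, KIF23 at −0.48 ± 0.28, MCM6 at −0.40 ± 0.23 and RRM1 at −0.36 ± 0.21. On the other side PLK1 was at 0.34 ± 0.19, CDC20 at 0.20 ± 0.27, GINS2 at 0.16 ± 0.22 and MCM2 at 0.14 ± 0.21. Among the standard markers, MKI67 was at −0.49 ± 0.33, TOP2A at −0.47 ± 0.34, CCNB1 at −0.16 ± 0.25, PCNA at −0.23 ± 0.21 and TYMS at −0.12 ± 0.27. edgeR called 0 of 40 members and 0% of all genes (lowest adjusted p among members 0.874), and 0 members had an unadjusted p under 0.05 against 4.13% of all genes. DESeq2 called 0 members, and limma-voom called MCM6, RRM1 and TPX2 lower and PLK1 higher, with 8.15% of all genes called. The mitosis median was −0.11 without Shweta Kapila low 1, −0.20 without Gir low 2 and −0.56 without Shweta Kapila low 3, and the replication median −0.082 without Shweta Kapila low 1, −0.067 without Gir low 2 and −0.21 without Shweta Kapila low 3. Without the 3 largest libraries they were 0.29 and 0.085, with the share of short identifiers as a covariate 0.058 and −0.057, and with the log2 total −0.20 and −0.11.

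Whether the yield difference itself differed between the breeds was tested as an interaction, the difference in Gir minus that in Shweta Kapila. Its median was 0.27 over replication genes (11 of 16 above 0) and 0.75 over mitosis genes (21 of 24 above 0), beside 0.012 over all genes. ANLN had the lowest p, at 1.46 ± 0.73 (SE; unadjusted p = 0.0663), followed on the same side by KIF23 at 1.04 ± 0.55, CDC6 at 1.12 ± 0.61 and MCM6 at 0.83 ± 0.46. MCM2 (−0.34 ± 0.42), CDC45 (−0.25 ± 0.44), CDK1 (−0.25 ± 0.74) and PLK1 (−0.052 ± 0.38) lay on the other side. MKI67 was at 0.56 ± 0.66, TOP2A at 0.89 ± 0.68, CCNB1 at 0.30 ± 0.50, PCNA at 0.49 ± 0.42 and TYMS at 0.10 ± 0.54. edgeR called 0 of 40 members and 0% of all genes (lowest adjusted p among members 0.955), and 0 members against 3.81% of all genes had an unadjusted p under 0.05. DESeq2 and limma-voom called 0 members. The mitosis median was 0.30 and the replication median 0.12 without Shweta Kapila low 1, and 1.21 and 0.44 without low 3. Without the 3 largest libraries they were −0.58 and −0.26, with the share of short identifiers as a covariate −0.065 and 0.077, and with the log2 total 0.44 and 0.31.

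Between breeds, most mitosis genes had lower means in Gir, and none passed the test. The Gir minus Shweta Kapila difference had a median of −0.50 over mitosis genes (22 of 24 below 0) and −0.10 over replication genes (9 of 16 below 0), beside −0.043 over all genes. CCNB1 was at −0.50 ± 0.25 (SE; unadjusted p = 0.0671), KIF23 at −0.55 ± 0.28, TOP2A at −0.65 ± 0.34, CDK1 at −0.74 ± 0.37 and CENPE at −0.91 ± 0.51. CCNE2 (−0.72 ± 0.42) and PCNA (−0.29 ± 0.21) led the replication genes below 0. Above 0 stood CDC45 (0.26 ± 0.22), MCM3 (0.26 ± 0.17), PLK1 (0.22 ± 0.19) and KIF20A (0.035 ± 0.26). MKI67 was at −0.28 ± 0.33, MCM2 at 0.056 ± 0.21 and TYMS at 0.24 ± 0.27. The 2 breeds overlapped for all 40 members, while 0.603% of all genes separated the 6 Gir from the 6 Shweta Kapila cows. edgeR called 0 of 40 members and 0% of all genes, with a lowest adjusted p of 0.548 among members and 0.0896 among all genes, and 0 members against 9.57% of all genes had an unadjusted p under 0.05. DESeq2 called 0 members, and limma-voom called CDK1, KIF11 and CENPE lower in Gir, with 16.6% of all genes called.

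As with yield, the breed difference moved with single cows and with covariates. Without Shweta Kapila low 3 the mitosis median was −0.67 and edgeR called TOP2A, at −0.88 ± 0.20 (SE; adjusted p = 0.0391), with 2.84% of all genes called. Without low 1 it was −0.26. Without the 3 largest libraries the mitosis median was 0.38 and the replication median 0.11, with 14 of 16 replication genes above 0. With the log2 total as a covariate the medians were −0.12 and 0.031, and with the share of short identifiers −0.20 and 0.0016. With single cows left out, the replication median was between −0.19 without low 3 and −0.0065 without low 1, and passed 1.5 times its value in either direction also without Gir high 3, Gir low 1, Gir low 2 and Gir low 3, Shweta Kapila high 1 or low 2.

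From cow to cow the members ranged from genes that moved with MKI67 to genes that moved against it. Over the 12 cows the median Pearson r of log2 CPM was 0.76 for pairs of mitosis genes, 0.27 for pairs of replication genes and 0.37 between the lists, and the median r of MKI67 with all other genes tested was −0.0016. Deviations from the group means gave 0.80, 0.32 and 0.51. All points share their libraries, their depth and the cell makeup of each cow, so these are descriptions. ASPM (r = 0.95), KIF20A, ANLN, CENPF, NDC80 and CDC6 (all 0.92) followed MKI67 most closely. Others lay between, such as CCNB1 (0.59), MCM3 (0.44) and AURKA (0.20), while PLK1 was at −0.76 and MCM5 at −0.67.

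The sign of r with MKI67 was not the same for every gene in the Gir and the Shweta Kapila cows. Within the 6 Gir cows, 15 of 16 replication and 23 of 23 other mitosis genes had a positive r with MKI67, TYMS being the exception at −0.22. Within the 6 Shweta Kapila cows, r was positive for 10 of 16 replication and 20 of 23 mitosis genes. The replication genes with a negative r there were MCM5 (−0.88), CDC45 (−0.68), MCM7 (−0.67), MCM2 (−0.43), FEN1 (−0.33) and GINS2 (−0.10), and the mitosis genes PLK1 (−0.96), CDC20 (−0.44) and AURKB (−0.40). In Gir the same genes had r between 0.017 for GINS2 and 0.84 for MCM2. The helicase subunits thus had r on both sides of 0 in Shweta Kapila, with MCM6 at 0.95, MCM4 at 0.75 and MCM3 at 0.52. MCM2, MCM5 and MCM7 were below 0. MKI67 stood at 362 and 247 CPM in Shweta Kapila low 1 and low 2, against 78.2 to 198 in the other cows of that breed. How far r rests on low 1 and low 2 was not tested. Some of these signs rest on values near 0, such as PLK1 at 0.055 in Gir. Over all other genes tested, r with MKI67 was positive for 50.5% in Gir and 49.4% in Shweta Kapila. With 6 cows it ran from −0.998 to 0.994 in Gir and from −0.999 to 0.998 in Shweta Kapila. MKI67 itself had an SD of log2 CPM of 0.36 in Gir and 0.87 in Shweta Kapila, so r in Gir rests on a narrower range. The difference between the breeds in r was not tested.

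**Figure D4:**
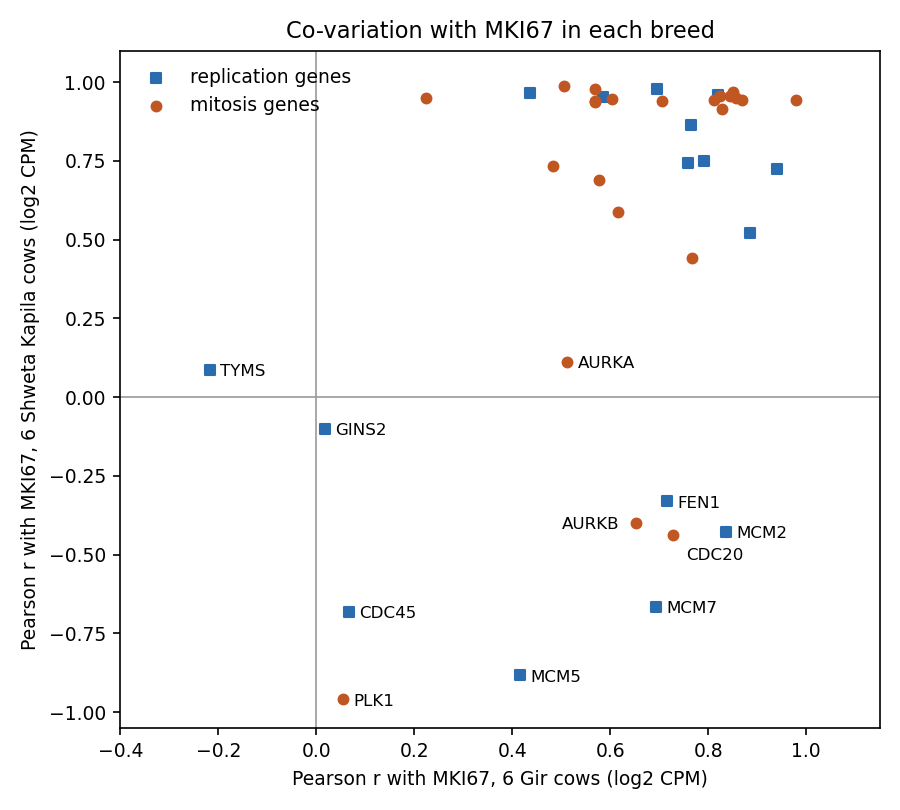
Pearson r of each gene with MKI67 over the 6 Gir cows (horizontal) and the 6 Shweta Kapila cows (vertical), for 16 replication genes (squares) and the 23 mitosis genes other than MKI67 (circles). Most genes lie at the upper right, while PLK1, MCM5, CDC45, MCM7, CDC20, MCM2, AURKB, FEN1 and GINS2 lie below 0 in Shweta Kapila and above 0 in Gir.

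The wider cell cycle was read from 5 further lists: other origin and fork genes (39 of 40 symbols tested), other kinetochore, spindle and cytokinesis genes (56 of 61), transcription regulators of the cycle (22 of 22), cyclins, kinases and phosphatases of G1 and the checkpoints (21 of 21), and cycle inhibitors (16 of 18). edgeR called 0 genes of these lists, higher or lower, in any of the 5 comparisons. In Shweta Kapila the medians for yield were −0.23 for origin and fork genes (9 above 0, 30 below) and −0.28 for kinetochore and spindle genes (15 above, 41 below). Those of the regulators, the G1 cyclins and kinases, and the inhibitors were −0.15, −0.073 and 0.053. By lowest p these lists were led on the lower side by RPA1 (−0.62 ± 0.22), a subunit of the single-strand binding protein, KIF15 (−1.18 ± 0.40), a spindle kinesin, MYC (−0.80 ± 0.23), the growth regulator, WEE1 (−0.69 ± 0.30), the kinase that holds CDK1 inactive, and CDKN3 (−0.65 ± 0.29), a phosphatase of the cycle kinases. On the higher side stood TK1 (0.60 ± 0.40), thymidine kinase, NCAPD3 (0.51 ± 0.23), a condensin subunit, E2F2 (0.79 ± 0.30), CCND3 (0.82 ± 0.49), cyclin D3, and CDKN2D (0.67 ± 0.39), an inhibitor of cyclin D kinases. MYC had the lowest adjusted p among these 10, 0.575.

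In Gir the medians of these lists for yield lay between −0.065 and −0.0064. CDKN2B, an inhibitor of cyclin D kinases, had the lowest p of them at −1.38 ± 0.43 (SE; unadjusted p = 0.007, adjusted p = 1), and CDKN1A, which codes for p21, was at 0.70 ± 0.39. RFC5, a clamp loader subunit, was at −0.40 ± 0.22, GINS1 at 0.47 ± 0.33, ZWINT of the kinetochore at −0.45 ± 0.33, UBE2C, an enzyme of the anaphase-promoting complex, at 0.44 ± 0.36, and E2F7, a repressor of E2F genes, at −0.74 ± 0.61. MYBL1, a MYB family regulator, was at 0.62 ± 0.50, CCND1 (cyclin D1) at 0.22 ± 0.29 and CDK7, which activates the cycle kinases, at −0.30 ± 0.26. Between breeds the medians were −0.31 for kinetochore and spindle genes, −0.29 for G1 cyclins and kinases and −0.22 for origin and fork genes, all with lower means in Gir, and −0.046 for regulators and −0.0095 for inhibitors. GMNN (−1.0 ± 0.35), the geminin that blocks relicensing, CENPU (−1.08 ± 0.40), TFDP1 (−0.59 ± 0.21), the partner of E2F proteins, CKS2 (−0.68 ± 0.26) and BTG3 (−0.79 ± 0.27) were lowest by p on the side lower in Gir. On the other side stood POLA2 (0.32 ± 0.18), NCAPD2 (0.35 ± 0.17), E2F2 (0.49 ± 0.21), CDC25B (0.40 ± 0.14), the phosphatase that opposes WEE1, and CDKN3 (0.40 ± 0.21). Their adjusted p-values ran from 0.388 to 0.581.

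Taken over both breeds, the lowest p-values for yield in these lists on the lower side were those of RPA1 (−0.34 ± 0.16), KIF15 (−0.58 ± 0.28), MYC (−0.44 ± 0.16), ATM (−0.46 ± 0.27), the damage checkpoint kinase, and CDKN2B (−0.65 ± 0.30), and on the higher side those of TK1 (0.25 ± 0.28), NCAPD3 (0.29 ± 0.17), E2F2 (0.49 ± 0.21), CCND1 (0.35 ± 0.20) and CDKN1A (0.38 ± 0.27). For the interaction, ORC1 (1.13 ± 0.52), a subunit of the origin recognition complex, KIF15 (1.19 ± 0.56), MYC (0.72 ± 0.32), WEE1 (0.77 ± 0.42) and BTG2 (0.35 ± 0.29) led on the side above 0. Below 0 stood TK1 (−0.72 ± 0.57), KIFC1 (−0.80 ± 0.56), a kinesin of the spindle poles, TFDP1 (−0.81 ± 0.42), CCND3 (−0.97 ± 0.69) and CDKN2B (−1.44 ± 0.59). None of these 20 values passed the test, with adjusted p-values of 0.874 or more.

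Blood cell markers varied between the same cows. The summed level of the progenitor list (8 of 8 symbols in the table, SPINK2 at 0 in all libraries and CD34 at no more than 0.525 CPM) was 171, 139 and 64.4 CPM in Shweta Kapila low 1, 2 and 3, 110.1 to 122 in Shweta Kapila high, 95.9 to 105 in Gir high and 84.7 to 99.7 in Gir low. It thus ordered the low-yielding Shweta Kapila cows as the mitosis genes did. The sums of the T cell, plasma cell (1175, 1030 and 937 CPM), NK and cytotoxic (1226, 953 and 825) and monocyte (361, 355 and 314) lists gave the same order. Those of the mature neutrophil (3934, 2830 and 2937 CPM) and granulocyte precursor (10.85, 8.33 and 11.87) lists did not. Neither did those of the erythroid (149.9, 175.9 and 146.8 CPM) and platelet (281, 476 and 323) lists. By mean log2 CPM the plasma cell list ran the other way, at 4.84, 5.00 and 5.51. The monocyte list was by that measure highest in Shweta Kapila low 2 of these cows, so its order changed as well. MYB and CDK6, members of the progenitor list, are expressed by activated lymphocytes as well. CDK6 is also in the list of G1 cyclins and kinases above, so the progenitor list is not separate from the cycle genes. Of its 8 symbols, 5 passed the filter on low counts. The sum of the B cell list (9 of 11 symbols, none at 0) rose from Shweta Kapila low 1 to low 3, at 665, 1104 and 2544 CPM. It was 651 to 749.6 in Shweta Kapila high, 887 to 1313 in Gir high and 969 to 1846 in Gir low. Plasma cell markers (10 of 10, none at 0) summed to 937 to 1175 CPM in Shweta Kapila low, 787 to 1034 in Shweta Kapila high, 622 to 851 in Gir high and 610.0 to 699 in Gir low. T cell markers (13 of 13, none at 0) summed to 4118, 3585 and 2754 CPM in Shweta Kapila low 1, 2 and 3 against 4642 to 6259 in Shweta Kapila high, 2824 to 3148 in Gir high and 2601 to 3999 in Gir low. NK and cytotoxic markers (9 of 12, none at 0) summed to 825 to 1226 CPM in Shweta Kapila low, 1558 to 4115 in Shweta Kapila high, 481 to 860.3 in Gir high and 579 to 1103 in Gir low. Over the 12 cows the monocyte list summed to 161 to 695 CPM, mature neutrophils to 2231 to 5962, granulocyte precursors to 8.33 to 21.7, erythroid cells to 103 to 662 and platelets to 281 to 572. The part of these cell types in the levels of the cycle genes was not tested.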

How the data were processed

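The deposited table holds expected counts per gene, whose making is not described in its header; 57.0% of the values are not whole (tolerance 1e-06). Per the submitters' processing notes the authors used Trimmomatic and FastQC. For the aligner, counter, strand setting and build, nothing is given in the sources used here, so reads shared by overlapping or near-identical genes may have been split in unknown ways. Symbols were matched by gene identifier to a RefSeq table of the assembly NIAB-ARS_B.indTharparkar_mat_pri_1.0 (22754 of 26229 identifiers, 86.8%; 2852 had no count).

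The expected counts were rounded and tested in R 4.3.3 with edgeR 4.0.16: filterByExpr (minimum count 10, total 15; 15420 genes), TMM, and a robust quasi-likelihood fit of 4 group means over 12 libraries with a false discovery rate of 0.05, 2-sided. A count of 10 is 0.704 CPM in the smallest library and 0.368 in the largest. Log2 CPM used a prior count of 2, and the common coefficient of variation was 0.381. DESeq2 1.42.0, limma-voom with sample weights (limma 3.58.1), other scalings and filters, thinned counts, 2 covariates, and fits without single libraries or the 3 largest were alternatives. Summaries used Python 3.11.15, NumPy 2.4.6, pandas 2.3.3, SciPy 1.17.1 and matplotlib 3.10.9. The procedure was run on simulated data with the same spread in every group, which cannot show how it behaves where groups differ in spread, as here. Members and lists were chosen with earlier results of these data known. Values in each cow are given for MKI67, TOP2A, CCNB1, PCNA, MCM2 and TYMS and, per comparison, the 2 members of lowest p on each side of 0 in each list. Of the 5 further lists, the gene of lowest p on each side is given by its log2 fold change and SE. Levels per coding length and promoter sequences were not used here, so levels are not compared between genes.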

Additional observations from a re-analysis of the deposited data

How the results depend on the processing

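The medians of both lists kept their sign in all 5 comparisons with size factors of DESeq2 type, upper-quartile scaling, no filter, a stricter filter, thinned counts, the replicate block, fits within 1 breed (yield only) and DESeq2. Of 2668 values of named genes under an alternative, 2525 kept their sign and side of the threshold, 34 passed the threshold in addition and 109 changed sign, 101 of them within 1 SE of 0 in one of the fits. Where a value changed, the cause was not tested.

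With the share of short identifiers as a covariate the mitosis median was 0.15 for yield in Shweta Kapila, 0.058 in both breeds, −0.065 for the interaction and −0.20 for breed, the replication median for breed was 0.0016, and 24 genes were called for breed. The sign was then opposite for yield in Gir in PCNA (−0.0286). For yield in Shweta Kapila these were MKI67 (0.30), TOP2A (0.23), CDC45 (−0.26), PLK1 (−0.0817), ANLN (0.0221), TK1 (−0.23), CCND3 (−0.0271) and CDKN2D (−0.10). For yield in both breeds these were TOP2A (0.0515), CDC20 (−0.00194) and TK1 (−0.12). For the interaction these were MKI67 (−0.63), TOP2A (−0.35), CDC45 (0.20), PLK1 (0.43), TK1 (0.21) and KIFC1 (0.11). For breed these were MKI67 (0.12). Without the 3 largest libraries the mitosis medians were 0.56 for yield in Shweta Kapila, 0.29 in both breeds, −0.58 for the interaction and 0.38 for breed, and the replication medians 0.19 in Shweta Kapila, 0.085 in both breeds, −0.26 for the interaction and 0.11 for breed. Genes called were 3 for yield in Shweta Kapila, 1 in both breeds and 31 for breed. The sign was then opposite for yield in Shweta Kapila in MKI67 (0.39), TOP2A (0.95), CCNB1 (0.61), PCNA (0.41), TYMS (0.20), KIF23 (0.0105), ANLN (0.29) and KIF15 (0.14). For yield in both breeds these were MKI67 (0.0857), TOP2A (0.46), CCNB1 (0.30), PCNA (0.21), TYMS (0.0678), MCM6 (0.000909), ASPM (0.23), KIF23 (0.0217) and KIF15 (0.0777). For the interaction these were MKI67 (−0.60), TOP2A (−0.98), CCNB1 (−0.63), PCNA (−0.40), TYMS (−0.27), ANLN (−0.0503), PLK1 (0.30) and KIF15 (−0.13). For breed these were MKI67 (0.71), TOP2A (0.30), PCNA (0.12), CCNE2 (0.0872), PLK1 (−0.10) and KIF23 (0.13). With the log2 total as a covariate the mitosis medians were −0.47 for yield in Shweta Kapila, −0.20 in both breeds, 0.44 for the interaction and −0.12 for breed, the replication median for breed was 0.031, and 1 gene was called for yield in Shweta Kapila and 53 for breed. The sign was then opposite for yield in Gir in PCNA (−0.00977) and MCM2 (0.000446). For the interaction these were PLK1 (0.0446). For breed these were MKI67 (0.29) and MCM2 (−0.066). The sign with thinned counts was opposite for yield in Shweta Kapila in AURKA (−0.0771), and for the interaction in PLK1 (0.0247), and with upper-quartile scaling for yield in Gir in PCNA (−0.00675).

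DESeq2 called 1 gene for yield in Gir, 61 in Shweta Kapila, 4 in both breeds, 9 for the interaction and 195 for breed. Limma-voom called 1, 3898, 1256, 1308 and 2558 genes, with 14 members for yield in Shweta Kapila, 4 in both breeds and 3 for breed, a mitosis median of −0.032 for yield in Gir and a replication median of 0.41 for the interaction. The sign was then opposite for yield in Gir in PCNA (−0.11). For yield in Shweta Kapila these were MCM2 (−0.0586), TYMS (0.18) and AURKA (−0.0674). For yield in both breeds these were MCM2 (−0.0643) and TYMS (0.0292). For the interaction these were TYMS (−0.29). For breed these were MCM2 (−0.000494) and KIF20A (−0.00317). Without a filter 3 genes were called for breed.

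The replicate numbers pair no cows in the labels, and deviations of same-numbered libraries correlated between −0.56 and 0.34. With the replicate number as a block 1 gene and 0 members were called for breed, the mitosis median in Shweta Kapila was −0.64, and the sign was opposite for yield in Gir in CCNB1 (0.0514), and for the interaction in TYMS (−0.014).

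Leaving out each library in turn gave 0 to 447 genes called for breed, 0 to 2 for yield in Shweta Kapila and 0 to 1 for the interaction, and 0 to 1 members for breed. A lone low-yielding cow in a fit is assumed to vary like the others. Signs changed for some genes. For yield in Gir these were PCNA from −0.16 to 0.19, TOP2A from −0.24 to 0.23, TYMS from −0.52 to 0.17, CCNB1 from −0.27 to 0.23, MKI67 from −0.40 to 0.17, MCM2 from −0.15 to 0.15 and MCM7 from −0.17 to 0.00876. For yield in Shweta Kapila these were MCM2 from −0.00651 to 0.53, CDC45 from −0.0232 to 0.39, AURKA from −0.12 to 0.35 and TYMS from −0.37 to 0.11. For yield in both breeds these were MCM2 from −0.0218 to 0.25 and TYMS from −0.35 to 0.0229. For the interaction these were TYMS from −0.35 to 0.33, PLK1 from −0.39 to 0.0861 and CDK1 from −0.61 to 0.42. For breed these were MCM2 from −0.055 to 0.22 and KIF20A from −0.13 to 0.22.

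The median SE for a yield difference in Gir was 0.386 in the main fit, with 3 cows in a group. Differences under about 1 on the log2 scale could then rarely be told from 0, which limits what the values near 0 can show. That fit shares its estimate of spread over both breeds. With the libraries of 1 breed alone the median SE was 0.238 in Gir and 0.450 in Shweta Kapila. The levels of the lowest members, such as TTK at 1.94 CPM in Shweta Kapila low 3, also carry counting error.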
